A study of Homo sapiens with 6 samples.

Results

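Histone genes were examined in RNA-seq libraries of CFPAC-1 cells, an established human line from a pancreatic ductal adenocarcinoma. Members were the genes whose symbols begin with HIST1H to HIST4H, or with H1F, H2AF or H3F, without the P and number that end the name of a pseudogene. Of 121 matching names 16 ended that way, which left 105 members of 59962 genes in the deposited table. They fell into 74 clustered genes (the HIST1 to HIST4 symbols), 16 variants, and 15 names ending in PS or AS, with or without a number, which mark pseudogenes and antisense RNAs and were set apart by the name alone. GENCODE 29 annotates HIST2H3PS2, one of the names set apart, as protein coding, and HIST2H2BA, HIST2H2BB, HIST2H2BD and HIST3H2BA, kept among the clustered genes, as pseudogenes. The study had 3 groups of 2 libraries each. The control carried a guide RNA against LACZ, a bacterial gene, and the labels call it LACZ knockdown. The other groups carried sgRNA1 or sgRNA3, which target SULF2, the gene of an enzyme that removes sulfate from heparan sulfate at the cell surface. The sources used here do not state the time, the dose or the Cas protein, or whether a group is 1 clone or a pool of cells.

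Histones are the proteins around which DNA is wound: H2A, H2B, H3 and H4 form the core of the nucleosome, and H1 binds the linker DNA where it enters and leaves. Clustered, replication-dependent genes supply most histone protein in S phase, when new DNA needs packing. Their messages normally carry no introns and no poly(A) tail, and end in a short stem-loop that is bound by SLBP. Most variant genes lie outside the large histone clusters, make ordinary messages with a poly(A) tail and are transcribed through the cell cycle. Their proteins replace the standard histones at particular places, such as damaged DNA, promoters or silent chromatin.

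The stem-loop was searched for in the GENCODE 29 transcripts (build GRCh38), because it is what sets the clustered messages apart. The search, on the transcript's own strand, took stretches of 16 bases that begin with GG, hold CTTTT and then, after any base, AG, and end with CC, and whose outer 6 bases on either side can pair (G with T allowed). It was present in 33 of 74 clustered genes, in 1 of 16 variants and in none of the 15 names set apart. Among all 58676 genes with a transcript sequence, 42 (0.0716%) held it, so 8 lay outside the members. Below are the stem-loops, in capitals with 5 bases either side, of the clustered genes described later and of the single variant that has one. The coordinates are those of the capitals.
HIST1H2AC: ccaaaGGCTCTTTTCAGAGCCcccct
HIST1H2BD: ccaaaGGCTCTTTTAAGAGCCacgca
HIST2H2AA3: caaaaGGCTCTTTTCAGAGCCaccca
HIST2H4A: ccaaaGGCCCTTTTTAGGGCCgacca
HIST1H4J: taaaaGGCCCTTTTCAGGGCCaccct
H2AFX: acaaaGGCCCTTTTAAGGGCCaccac
They lie at chr6:26124669-26124684 on the plus strand for HIST1H2AC, and at chr6:26158587-26158602 on the plus strand for HIST1H2BD. That of HIST2H2AA3 lies at chr1:149842223-149842238 on the minus strand, and that of HIST2H4A at chr1:149833032-149833047 on the plus strand. That of HIST1H4J lies at chr6:27824459-27824474 on the plus strand, and that of H2AFX at chr11:119094898-119094913 on the minus strand. The stem-loop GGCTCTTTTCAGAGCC was the most frequent among clustered genes, with 18 of the 33.

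What follows the stem-loop differed between annotated genes. In 23 clustered genes at least 1 annotated transcript ran on for 100 bases or more past it, as in HIST1H2AC, where it ran on for 1128 bases. In 10 others every transcript with the stem-loop stopped within 100 bases, as in HIST1H4J, where 6 bases followed. The remaining 41 had the stem-loop in no annotated transcript. For 32 of these the gene length in the deposited table equalled the coding length, so that the untranslated ends of the message were not part of the gene. HIST1H2BK, with a length of 381 bases in the table, and HIST1H1C, with 642, were among the 32. Values per length for these genes therefore rest on reads in the coding part alone. HIST1H2BD had 2 annotated transcripts, of which 1 held the stem-loop and ended 39 bases after it. In the 23 genes with a longer transcript the median of the mean level was 3.2 TPM, in the 10 with a short end 2.61 TPM, and in the 41 without the stem-loop 0.5 TPM. TPM is abundance per length of transcript, scaled so that every library has an equal total. The sources used here do not state whether RNA with a poly(A) tail was selected. Of 18 other RNAs that lack a tail, such as small nuclear RNAs, 12 were listed at 0 in all 6 libraries, while RN7SL2, the RNA of the signal recognition particle, ranged from 773 to 973 TPM.

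Known promoter elements of histone genes were counted next. RefSeq promoters (build GRCh38.p14) were matched for 75 members, 61 of them clustered and 14 variant, and the 250 bases before each start were searched on both strands. The CCAAT box (CCAAT) was present in 51 of 61 clustered genes (83.6%), in 12 of 14 variants (85.7%) and in 37.0% of 27305 genes. The TATA box (TATAAA) was present in 41 clustered genes (67.2%), in 4 variants (28.6%) and in 13.0% of all genes. The octamer ATTTGCAT, which the factor OCT1 binds in H2B promoters, was present in 26 clustered genes (42.6%), in 1 variant (H3F3B) and in 2.03% of all genes. Among 18 clustered H2B genes with an entry, 14 held it. The 150 bases before the start are shown for HIST1H2BK and HIST1H2BD, which RefSeq names H2BC12 and H2BC5 and which are the most abundant H2B genes in these cells. Capitals mark the CCAAT box, the octamer and the TATA box on either strand.
HIST1H2BK: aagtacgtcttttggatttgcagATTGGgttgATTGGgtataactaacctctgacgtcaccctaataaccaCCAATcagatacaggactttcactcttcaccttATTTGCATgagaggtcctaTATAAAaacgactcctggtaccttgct
HIST1H2BD: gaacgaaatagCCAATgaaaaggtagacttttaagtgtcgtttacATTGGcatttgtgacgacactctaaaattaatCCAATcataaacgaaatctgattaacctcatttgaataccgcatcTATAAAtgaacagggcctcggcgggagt
The first lies at chr6:27146859-27147008 on the minus strand and the second at chr6:26157971-26158120 on the plus strand. Both windows held CCAAT and TATA boxes, and these letters of the octamer were in the first window and not in the second.

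Most tested variants lay at higher levels than most tested clustered genes. Clustered messages normally lack a poly(A) tail, and any selection of RNA is not stated. In this contrast, gene level and loss of RNA without a tail therefore cannot be told apart. Of the 74 clustered genes, 46 reached 1 TPM in at least 2 of the 6 libraries and were tested, and 11 were listed at 0 in every library. Of the 16 variants 11 were tested and 2 were listed at 0 throughout, and of the 15 names set apart HIST2H3PS2 alone was tested and 10 were listed at 0. The tested clustered genes had a median of the mean level of 3.53 TPM, and 35 of the 46 had a mean below 10 TPM. The tested variants had a median of 225 TPM, and 10 of the 11 had a mean of at least 50 TPM. By family, 3 of 6 clustered H1 genes, 12 of 17 H2A, 14 of 22 H2B, 8 of 14 H3 and 9 of 15 H4 were tested. Just inside the rule lay HIST1H2BF and HIST1H3B, whose second highest library was at 1.0 TPM, and just outside it HIST1H3I, at 0.98 TPM.

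**Figure D1:**
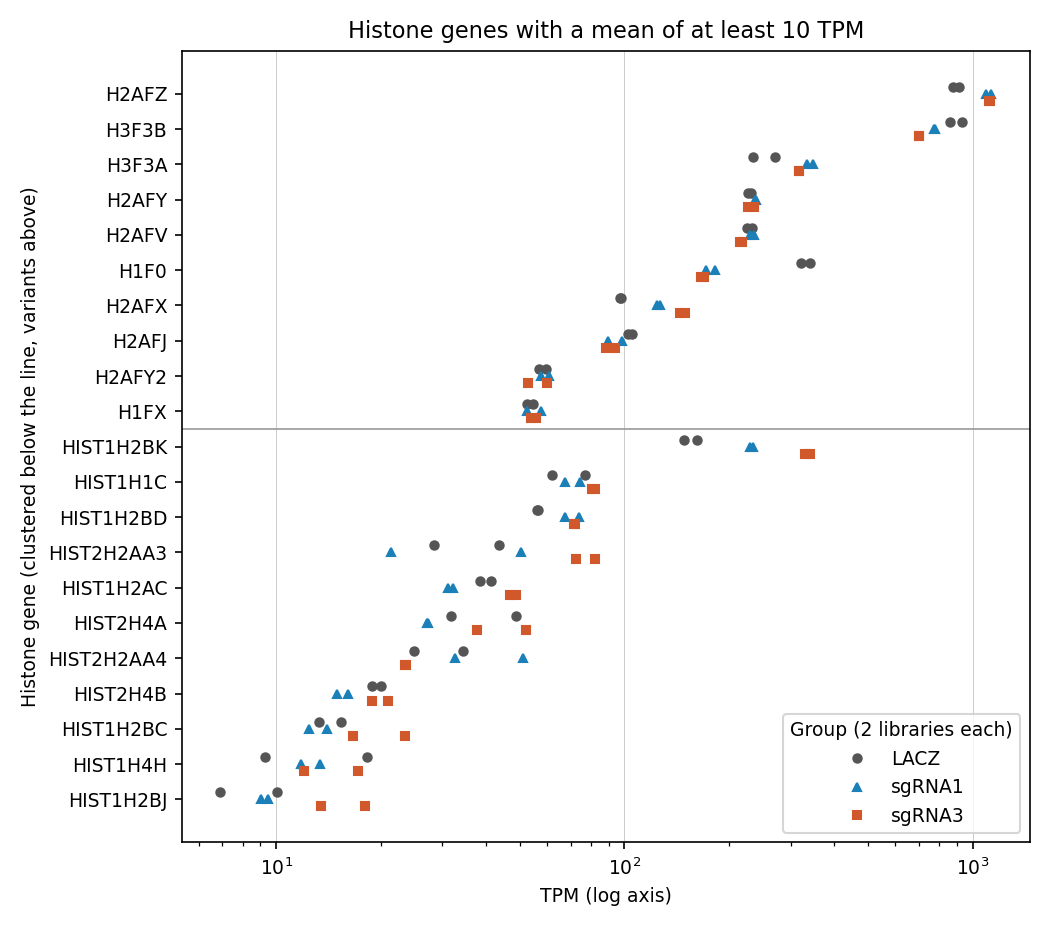
Level of each tested histone gene with a mean of at least 10 TPM (horizontal log axis, TPM), with 2 points for each of the LACZ, sgRNA1 and sgRNA3 groups. The 10 variants above the line reach from 52.7 TPM for H1FX to 1131 TPM for H2AFZ, and among the 11 clustered genes HIST1H2BK stands highest.

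SULF2 itself, which checks the labels, had 25.7 and 22.5 TPM in LACZ, 8.98 and 12.8 TPM with sgRNA1 and 10.1 and 9.24 TPM with sgRNA3 (limma adjusted p = 0.0338 and 0.0215), and passed in 1 and 2 of 6 fits with a library left out. The guide number tied the table's columns H1 and H3 to the samples titled S1 and S3, and these names have nothing to do with histones. TPM keeps no read depth, so depth is unknown and counting error cannot be given. Each library had 15563 to 15923 genes at 1 TPM or more. Of 9 markers of duct epithelium 8 reached 1 TPM, with KRT19 as high as 2915 TPM, but CFTR stayed between 0.07 and 0.38 TPM. The sum of the duct markers ranged from 7946 to 9130 TPM. Of markers of other cells 3 of 7 for fibroblasts, 2 of 5 for endothelium and 3 of 6 for leukocytes reached 1 TPM, led by COL1A1 at up to 74.8 TPM and CD68 at up to 107 TPM, while PTPRC, which marks all leukocytes, stayed at 0.1 TPM or less. KRT18, KRT19, SOX9 and COL1A1 were called lower with both guides and CD68 higher with sgRNA3, and their part in the histone results was not tested. In RNA from many cells, more cells in S phase and more RNA per cell cannot be told apart.

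All tests below are from limma on log2(TPM + 1), fitted once over 3 groups and 16610 genes, with 2-sided p-values adjusted over all of these genes (Benjamini-Hochberg) and a threshold of 0.05. Nothing in the labels puts the 2 libraries of a group in separate cultures, so the p-values reflect the spread of these libraries alone, which may be technical. Both guides are compared with the same 2 LACZ libraries, so their changes against LACZ are not independent of each other. With sgRNA1, 8 of 58 tested members passed (13.8%), against 6% of all genes tested. With sgRNA3, 8 of 58 passed (13.8%), against 9.08% of all genes. HIST1H2AD, HIST1H2AL, HIST1H2BF and HIST1H3B met the filter through the libraries of 1 group alone, so part of their difference is set by the filter. Without these genes, 6 of 54 members passed with sgRNA1 (11.1%) and 7 of 54 with sgRNA3 (13.0%).

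By class, with sgRNA1 the clustered genes had 3 called higher and 1 called lower of 46, and the variants 3 higher and 1 lower of 11. With sgRNA3 the clustered genes had 2 higher and 2 lower, and the variants 2 higher and 2 lower. Without the genes tested through 1 group alone, 2 clustered genes were called higher with sgRNA1 and 0 lower; for sgRNA3 the counts were 2 and 1. Over all genes, the sgRNA1 fit called 1.69% higher and 4.31% lower, and the sgRNA3 fit 3.84% higher and 5.25% lower. The median log2 change of the tested clustered genes was -0.23 with sgRNA1, where all genes had -0.07, and 0.12 with sgRNA3, where all genes had -0.05. That of the tested variants was 0.04 and 0.01, with ranges of 0.01 to 0.06 and -0.02 to 0.04 when a library was left out.

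By family, the 14 tested H2B genes had median log2 changes of 0.22 with sgRNA1 and 0.26 with sgRNA3, and 9 and 12 of the 14 lay above 0. Of these, HIST2H2BA, HIST2H2BB and HIST2H2BD are annotated as pseudogenes, and the other 11 had medians of 0.23 and 0.44, with 7 and 9 above 0. The 3 tested clustered H1 genes had medians of -0.69 and -0.94 for the 2 guides, and the 12 tested H2A genes -0.19 and 0.17. The 8 tested clustered H3 genes had medians of -0.35 and -0.14, and the 9 tested H4 genes -0.30 and 0.03. None of the 17 passed with sgRNA1 (1 of each family had an unadjusted limma p under 0.05). Of all 16610 genes tested, 6734 lay above 0 with sgRNA1 and 7384 with sgRNA3, and 9858 and 9216 lay below 0. Of the 6 clustered H3 genes that were not tested, 5 had a mean TPM above that of LACZ with sgRNA1. With sgRNA3, 2 lay above LACZ, 1 below and 3 level with it. HIST1H3A, HIST1H3D, HIST1H3I and HIST3H3 were listed at 0 in sgRNA1 library 1, so their sgRNA1 means rest on library 2. HIST2H3PS2, set apart by its name, has no 31-base word of its own and shares 99.5% of them with AC239798.4. It measured 4.25 and 3.87 TPM in LACZ, 4.61 and 8.97 TPM with sgRNA1 and 11.6 and 9.33 TPM with sgRNA3, and did not pass (adjusted p = 0.312 and 0.0712). Several of the clustered genes are near-identical copies that share reads, and most lie at a few TPM, so they are not separate observations.

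**Figure D2:**
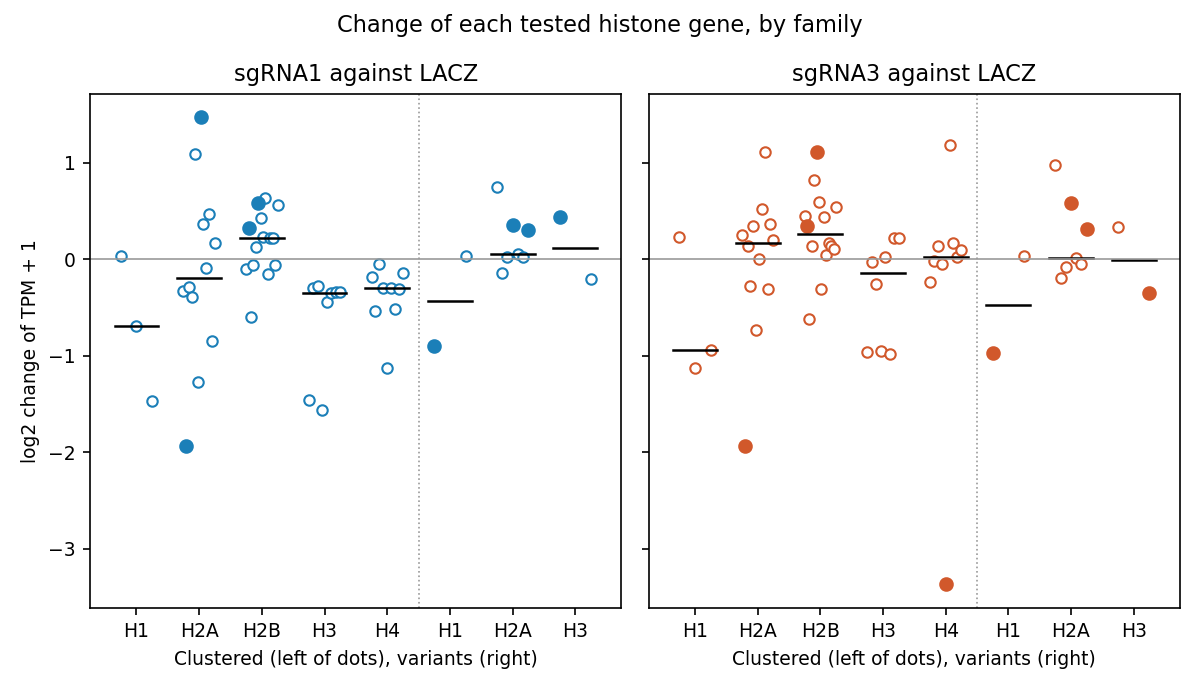
Change of each tested clustered and variant histone gene against LACZ (vertical axis, log2 change of TPM + 1) with sgRNA1 (left) and sgRNA3 (right), by family; filled points passed at an adjusted p of 0.05 and bars are family medians. The H2B median is 0.22 with sgRNA1 and 0.26 with sgRNA3. HIST1H4J at -3.37 is the lowest point with sgRNA3.

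HIST1H2BK (ENSG00000197903, chr6:27146418-27146798, minus strand) encodes a core H2B and was the most abundant clustered gene. It measured 161 and 148 TPM in the LACZ libraries, 235 and 229 TPM with sgRNA1, and 330 and 341 TPM with sgRNA3. The 3 groups did not overlap, with sgRNA3 highest. With sgRNA1 the log2 change was 0.58 ± 0.053 (SE; limma adjusted p = 0.008), and sgRNA3 gave 1.11 (adjusted p = 0.00128). The call with sgRNA3 held without each library in turn, whereas that with sgRNA1 was lost without either sgRNA1 library (adjusted p = 0.0516 and 0.0574). Of its 31-base words 13.7% were unique to it, and 74.4% also occur in H2BFS, a near copy listed at 0 to 0.16 TPM. Summing the pair, chosen after seeing the data, gave log2 changes of 0.58 and 1.11. With H2BFS so close to 0 the sum could hardly differ, so it cannot show whether reads were shared.

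HIST1H2BD (ENSG00000158373), the next H2B gene by level, measured 56.2 and 56.4 TPM in LACZ, 67.5 and 73.8 TPM with sgRNA1 and 72.1 and 71.6 TPM with sgRNA3. Both LACZ libraries lay below all 4 others, and the guides overlapped. The log2 change was 0.32 (limma adjusted p = 0.0476) and 0.35 (adjusted p = 0.034). The sgRNA1 call did not hold in any fit with 1 library left out (adjusted p from 0.0681 to 0.182), nor did the sgRNA3 call without either LACZ or either sgRNA3 library (0.129 to 0.138). HIST1H2BC and HIST1H2BJ, at means of at least 10 TPM, were not called.

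**Figure D3:**
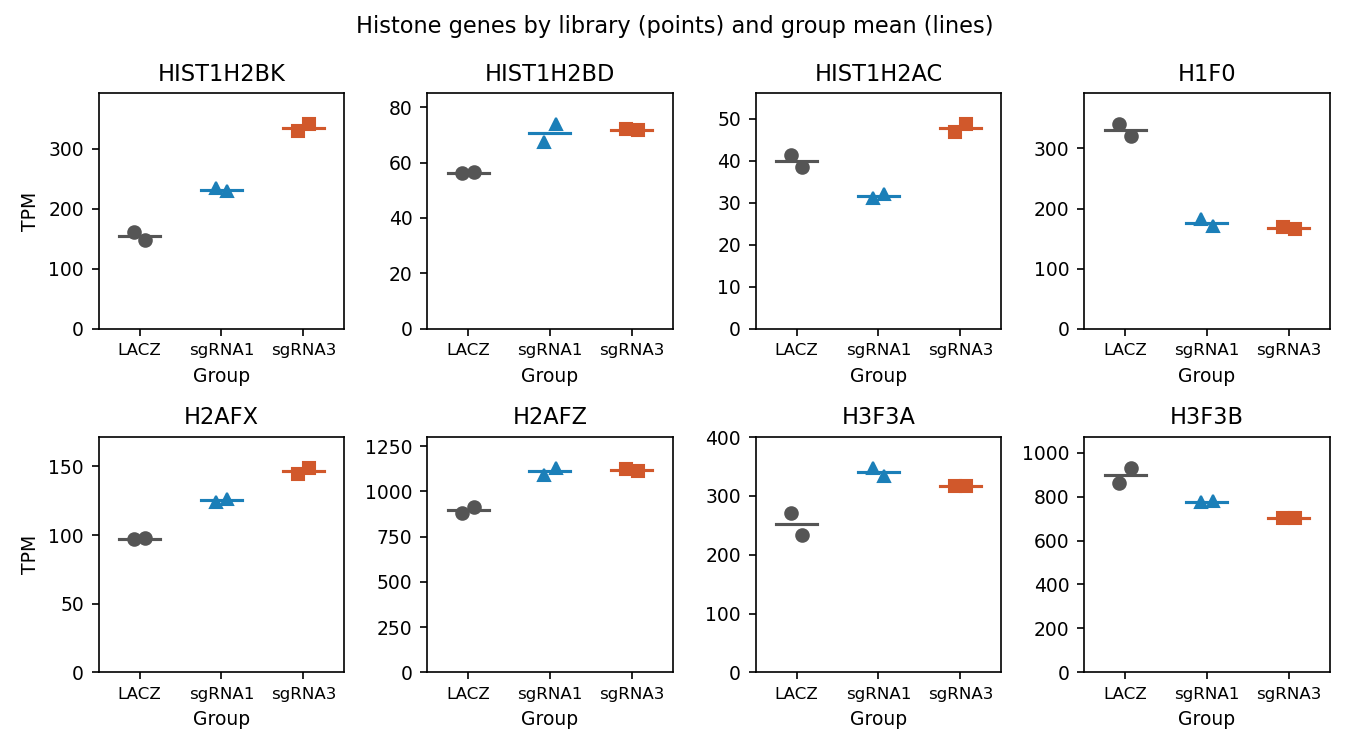
TPM of 3 clustered genes and 5 variants by group (vertical axes from 0, TPM; points are libraries, lines are group means). HIST1H2BK and H2AFX are lowest in LACZ and highest with sgRNA3, H1F0 is at 321 and 340 TPM in LACZ and at 166 to 182 TPM elsewhere, and H3F3A and H3F3B lie on opposite sides of their LACZ levels.

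Among the clustered H2A genes the most abundant were HIST2H2AA3, a member of a duplicated pair, and HIST1H2AC. HIST1H2AC measured 41.4 and 38.6 TPM in LACZ, 31.2 and 32.2 TPM with sgRNA1, and 46.8 and 48.7 TPM with sgRNA3. The groups did not overlap, with sgRNA1 lowest and sgRNA3 highest. Its log2 change did not pass against LACZ with sgRNA1 (-0.33, limma adjusted p = 0.0566) or with sgRNA3 (0.25, adjusted p = 0.08). With a filter of 5 TPM the sgRNA1 change passed (limma adjusted p = 0.0409).

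HIST2H2AA3 and HIST2H2AA4 are copies that share 100% and 97.2% of their 31-base words, so reads cannot be assigned between them with certainty. HIST2H2AA3 measured 28.4 and 43.7 TPM in LACZ, 21.4 and 50.5 TPM with sgRNA1 and 82.3 and 72.7 TPM with sgRNA3. HIST2H2AA4 measured 34.4 and 24.9, 51.3 and 32.7, and 23.6 and 23.4 TPM in the same order. The sum of the pair was 62.7 and 68.6 TPM in LACZ, 72.7 and 83.2 TPM with sgRNA1, and 106 and 96.1 TPM with sgRNA3. As a sum the pair was higher with sgRNA3 by a log2 change of 0.61 (limma adjusted p = 0.024), while with sgRNA1 it was 0.24 (adjusted p = 0.193). That call was lost without either LACZ or either sgRNA3 library (adjusted p from 0.0762 to 0.109).

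A pair of H2A genes at a few TPM was called. HIST1H2AD measured 2.16 and 3.64 TPM in LACZ and was listed at 0 in all 4 guide libraries. It met the filter only through LACZ, the group where it is high, so its calls with both guides are no separate support for a difference. It shares 98.1% of its 31-base words, and 98.0% of its exon bases, with the gene AL031777.3, which was at 4.02 to 5.4 TPM in all 6 libraries. Summed with it, a step added after seeing the data, neither call held (adjusted p = 0.0936 and 0.15). HIST1H2AL was listed at 0 in LACZ and with sgRNA3, and was at 1.5 and 2.1 TPM with sgRNA1, through which alone it was tested, so its call is no support either. The HIST1H2AD calls were lost without any sgRNA1 or sgRNA3 library, and the HIST1H2AL call without any LACZ or sgRNA3 library. In the remaining fits, those genes had too few libraries at 1 TPM to be tested.

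The H4 genes at the highest levels were another duplicated pair, HIST2H4A and HIST2H4B. HIST2H4A measured 31.7 and 48.7 TPM in LACZ, 27.4 and 27.1 TPM with sgRNA1 and 37.8 and 52.2 TPM with sgRNA3. HIST2H4B measured 20.0 and 18.9, 14.9 and 16.1, and 21.0 and 18.8 TPM. Their sum, 51.7 and 67.5 TPM in LACZ, was 42.3 and 43.1 TPM with sgRNA1 and 58.8 and 71.0 TPM with sgRNA3. Its log2 changes, -0.46 and 0.13, did not pass (limma adjusted p = 0.141 and 0.634).

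HIST1H4J measured 17.5 and 16.8 TPM in LACZ, 12.5 and 4.13 TPM with sgRNA1, and 0 and 2.07 TPM with sgRNA3, a change that passed with sgRNA3 (log2 change -3.37, limma adjusted p = 0.043). Its near copy HIST1H4K, all of whose 31-base words occur in HIST1H4J, lay the other way at 4.95 and 4.77, 3.89 and 3.65, and 8.71 and 17.2 TPM. Their sum was 22.4 and 21.6 TPM in LACZ, 16.4 and 7.78 TPM with sgRNA1 and 8.71 and 19.3 TPM with sgRNA3. The sum, taken after seeing the data, did not pass (log2 change -0.71 with sgRNA3, adjusted p = 0.365), and HIST1H4J itself passed in none of the 6 fits with a library left out (0.0558 to 0.157).

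Clustered H3 genes were all low. The highest, HIST1H3E, measured 5.37 and 4.77 TPM in LACZ, 5.71 and 2.75 TPM with sgRNA1 and 4.22 and 3.92 TPM with sgRNA3. HIST1H3H measured 3.96 and 3.19, 2.34 and 2.37, and 4.25 and 3.09 TPM. HIST2H3A and HIST2H3C, which no 31-base word tells apart, were listed with the same values, and their sum was 4.42 and 5.42 TPM in LACZ, 3.7 and 3.24 TPM with sgRNA1, and 5.98 and 6.16 TPM with sgRNA3. In the sum the sgRNA1 libraries were lowest and the sgRNA3 libraries highest, but no H3 gene or sum passed the test.

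Of the clustered linker histones only HIST1H1C had a mean above 10 TPM, at 76.9 and 62.1 TPM in LACZ, 67.6 and 74.5 TPM with sgRNA1 and 80.5 and 82.3 TPM with sgRNA3. It did not pass (limma adjusted p = 0.873 and 0.251). HIST1H1E measured 4.1 and 2.98 TPM in LACZ, 0.61 and 0.64 TPM with sgRNA1 and 2.08 and 0.79 TPM with sgRNA3. All 4 guide libraries lay below both LACZ libraries, and neither change passed (adjusted p = 0.0671 and 0.142).

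The linker variant H1F0 (ENSG00000189060, chr22:37805093-37807436, plus strand), which encodes H1.0, the linker histone of resting and differentiated cells, had the largest change among the variants that passed the test. It measured 340 and 321 TPM in the LACZ libraries, 182 and 171 TPM with sgRNA1, and 169 and 166 TPM with sgRNA3. The LACZ libraries stood apart from all 4 others. Its log2 change was -0.90 for sgRNA1 (limma adjusted p = 0.00187) and -0.98 for sgRNA3 (adjusted p = 0.00165). It was the only member whose calls with both guides held without each library in turn, and all of its 31-base words were unique to it. H1FX, the other linker variant tested, lay between 52.7 and 57.6 TPM in all 6 libraries and did not pass. H1F0 made up 71.4% and 72.6% of the summed TPM of the 10 linker genes in LACZ, 59.8% and 56.0% with sgRNA1, and 54.9% and 54.5% with sgRNA3. The sum over linker genes was 476 and 443 TPM in LACZ and 304 to 308 TPM in the other 4 libraries.

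H2AFX (ENSG00000188486, chr11:119093854-119095467, minus strand) encodes H2A.X, which is phosphorylated around DNA breaks, and is the variant with the stem-loop shown above. Its annotated transcripts ran on for 821 bases or more past that stem-loop. It measured 97.0 and 97.5 TPM in LACZ, 124 and 126 TPM with sgRNA1 and 145 and 149 TPM with sgRNA3. The 3 groups did not overlap, but no variant was called between the guides. The log2 change was 0.36 (limma adjusted p = 0.0154) and 0.59 (adjusted p = 0.00364). The sgRNA1 call did not hold without either LACZ or either sgRNA1 library (0.0599 to 0.0899), and the sgRNA3 call held without each library in turn.

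H2AFZ (ENSG00000164032) encodes H2A.Z, a variant at promoters and regulatory elements, and was the most abundant histone gene. It measured 881 and 916 TPM in LACZ, 1092 and 1131 TPM with sgRNA1 and 1126 and 1112 TPM with sgRNA3. The LACZ libraries lay below all 4 others. The log2 change was 0.31 (limma adjusted p = 0.0144) and 0.32 (adjusted p = 0.011). The sgRNA1 call did not hold without either LACZ library or sgRNA1 library 2 (0.0501 to 0.0795), nor did the sgRNA3 call without LACZ library 1 or either sgRNA3 library (0.0609 to 0.0707). Of its exon bases 9.68% overlap the gene AC097460.1 on the opposite strand, and the sources used here do not state whether counting used strand.

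None of the remaining H2A variants passed the test. H2AFV, which encodes a close relative of H2A.Z, measured 225 and 232 TPM in LACZ, 236 and 230 TPM with sgRNA1 and 215 and 217 TPM with sgRNA3. H2AFY, the macroH2A gene, measured 227 and 232, 239 and 237, and 236 and 226 TPM, and its relative H2AFY2 measured 56.9 and 59.4, 60.8 and 57.5, and 59.9 and 52.9 TPM. Antisense overlap touches 28.0% of the H2AFY exon bases and 22.9% of those of H1FX. H2AFJ measured 105 and 103 TPM in LACZ, 98.6 and 90.0 TPM with sgRNA1 and 93.7 and 88.2 TPM with sgRNA3, with all 4 guide libraries below LACZ (adjusted p = 0.256 and 0.13). H2AFB3, a gene otherwise known from testis, was listed at 0 in LACZ, at 1.31 and 0.23 TPM with sgRNA1 and at 0.6 and 1.42 TPM with sgRNA3. Only 0.713% of its 31-base words are its own and 93.8% are also in H2AFB1, which was at 0.4 TPM in LACZ library 2 and listed at 0 in the other 5 libraries.

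H3F3A and H3F3B encode the same protein, the replacement histone H3.3, from genes on chromosomes 1 and 17. H3F3A measured 271 and 234 TPM in LACZ, 348 and 334 TPM with sgRNA1 and 317 and 318 TPM with sgRNA3. H3F3B measured 863 and 932 TPM in LACZ, 774 and 779 TPM with sgRNA1 and 704 and 703 TPM with sgRNA3. In both genes the LACZ libraries were apart from the rest, below them for H3F3A and above them for H3F3B. H3F3A passed with sgRNA1 (log2 change 0.44, limma adjusted p = 0.0374), and its change with sgRNA3 was 0.33 (adjusted p = 0.057). With a filter of 5 TPM or median-of-ratios scaling, H3F3A also passed with sgRNA3 (limma adjusted p = 0.041 and 0.037). H3F3B passed with sgRNA3 (-0.35, adjusted p = 0.0141), and its change with sgRNA1 was -0.21 (adjusted p = 0.0569). The H3F3A call was lost without any library but LACZ library 1 (0.0792 to 0.131), and the H3F3B call without either sgRNA3 library (0.0778 and 0.08).

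Summed, the H3.3 genes gave 1134 and 1165 TPM in LACZ, 1122 and 1113 TPM with sgRNA1 and 1021 and 1021 TPM with sgRNA3. H3F3A made up 23.9% and 20.0% of the sum in LACZ and 30.0% to 31.1% in the other 4 libraries. The sum passed with sgRNA3 (log2 change -0.17, limma adjusted p = 0.0266) and not with sgRNA1 (-0.04, adjusted p = 0.43). The call was lost without any single library but sgRNA1 library 2 (adjusted p from 0.0501 to 0.13), and under median-of-ratios scaling (-0.12, adjusted p = 0.0821). H3F3A shares 12.2% of its 31-base words with the pseudogene H3F3AP4.

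The summed level of the clustered genes was highest with sgRNA3. Over all 74 clustered genes the summed level was 596 and 603 TPM in LACZ, 653 and 667 TPM with sgRNA1, and 848 and 873 TPM with sgRNA3. HIST1H2BK alone made up 27.0% and 24.6% of it in LACZ, 35.9% and 34.3% with sgRNA1 and 38.9% and 39.1% with sgRNA3. Without HIST1H2BK the sum was 435 and 455 TPM in LACZ, 419 and 439 TPM with sgRNA1, and 519 and 532 TPM with sgRNA3. The sgRNA1 libraries then overlapped LACZ, and the sgRNA3 libraries stayed above both. The variants summed to 3120 and 3181 TPM in LACZ, 3208 and 3215 TPM with sgRNA1 and 3121 and 3087 TPM with sgRNA3. Clustered genes thus made up 16.04% and 15.93% of the summed clustered and variant level in LACZ, 16.9% and 17.2% with sgRNA1, and 21.4% and 22.1% with sgRNA3. These sums are descriptions and were not tested, and the clustered share may depend on whether RNA without a poly(A) tail was kept.

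**Figure D4:**
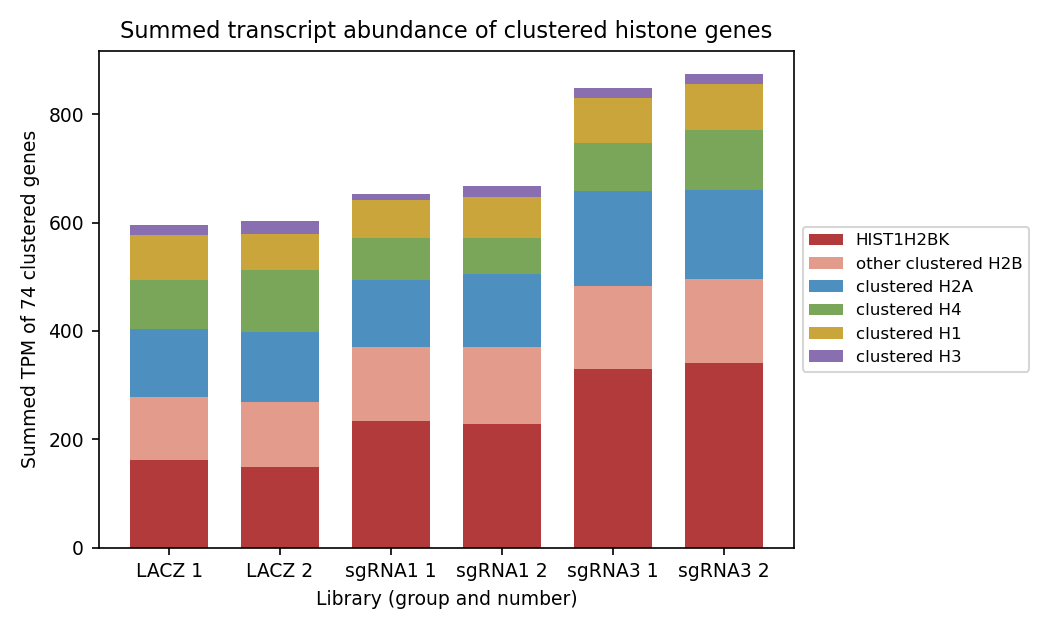
Summed TPM of the 74 clustered histone genes in each library (bars from 0), stacked by family with HIST1H2BK shown apart from the other H2B genes. The sums are 596 and 603 in LACZ, 653 and 667 with sgRNA1, and 848 and 873 with sgRNA3, and HIST1H2BK and H2A make up most of the added height with sgRNA3.

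The guides were also compared with each other. Of 58 tested members 2 passed between sgRNA3 and sgRNA1 (3.45%), against 0.578% of all genes tested. HIST1H2BK was higher with sgRNA3 by a log2 value of 0.53 (limma adjusted p = 0.035) and HIST1H2AC by 0.58 (adjusted p = 0.046). Neither call held in a fit with 1 library left out (adjusted p from 0.0605 to 0.167 and from 0.113 to 0.208), and that of HIST1H2AC also under median-of-ratios scaling (0.0603) and quantile normalization (0.059). The median log2 value of the 46 clustered genes between guides was 0.19, and that of all genes 0.04. The clustered median was 0.12 to 0.27 with a library left out, the lowest without sgRNA3 library 2, and 0.01 with no filter on low values.

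Genes that act on histone messages and proteins were followed through lists, which were chosen with earlier results of these data known. Over all genes tested, 1.69% were called higher and 4.31% lower with sgRNA1. With sgRNA3 these shares were 3.84% and 5.25%. Of 15 tested genes of histone mRNA processing and decay 2 were called higher and none lower with each guide, which were SLBP and SRRT. SLBP, which binds the stem-loop, measured 61.9 and 59.5 TPM in LACZ, 92.9 and 95.9 TPM with sgRNA1, and 111 and 121 TPM with sgRNA3. It was highest with sgRNA3 in groups that did not overlap, but no gene of this list was called between the guides. How many of all genes separate in this way was not counted. The log2 change of SLBP was 0.63 (limma adjusted p = 0.00981) and 0.92 (adjusted p = 0.00333). The call with sgRNA1 was lost without either LACZ or either sgRNA1 library, and the call with sgRNA3 held without each library in turn. SRRT, a cap-binding partner, had log2 changes of 0.30 and 0.28 (adjusted p = 0.0429 and 0.0425), and neither held in a fit with 1 library left out. RNU7-1, the small nuclear RNA that guides cutting after the stem-loop, was listed at 0 in every library.

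Of 8 genes of histone gene transcription none passed in limma with sgRNA1 (2 had an unadjusted p under 0.05) and CCNE2 passed with sgRNA3. CCNE2, a cyclin E that drives entry into S phase, measured 8.55 and 7.98 TPM in LACZ, 12.2 and 11.4 TPM with sgRNA1 and 14.8 and 15.1 TPM with sgRNA3 (log2 change 0.46, limma adjusted p = 0.0636, and 0.78, adjusted p = 0.0159). Leaving out either LACZ or either sgRNA3 library ended the sgRNA3 call. With sgRNA1, CCNE2 passed under median-of-ratios scaling, quantile normalization and a filter of 5 TPM (limma adjusted p = 0.0362, 0.0277 and 0.0458). NPAT, the coactivator of clustered histone genes, lay between 8.25 and 10.8 TPM with log2 changes of 0.02 and -0.12. Of 26 histone chaperones and importers, none passed with sgRNA1 (8 had an unadjusted limma p under 0.05) and IPO4, which imports H3 and H4, and SUPT16H, a subunit of FACT, were called higher with sgRNA3 (log2 changes 0.82 and 0.18). Neither held in a fit with 1 library left out. None of 6 genes of the centromeric histone CENP-A and its loading passed with either guide, and 1 had an unadjusted limma p under 0.05 with each.

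Of 30 tested genes of DNA replication 8 were called higher with sgRNA1 and 13 with sgRNA3, and none lower. Over all genes tested 1.69% and 3.84% were called higher. This list too was chosen with earlier results of these data known. PCNA, the sliding clamp of DNA polymerases, measured 298 and 288 TPM in LACZ, 451 and 459 TPM with sgRNA1 and 479 and 484 TPM with sgRNA3. Its log2 change was 0.63 (limma adjusted p = 0.00173) and 0.72 (adjusted p = 0.0013), and it held without each library in turn. FEN1, MCM3 and MCM6, which act at the replication fork, had log2 changes of 0.51, 0.41 and 0.39 with sgRNA1 and of 0.53, 0.43 and 0.52 with sgRNA3. The median over the list was 0.19 and 0.28, where all genes had -0.07 and -0.05. The counts fell to between 1 and 4 with sgRNA1 without any 1 library, and with sgRNA3 to 1 or 2 without a LACZ or sgRNA3 library. None of 15 genes of mitosis passed with either guide, and 2 had an unadjusted limma p under 0.05 with each. The part of these genes in the levels of the histone genes was not tested.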

How the data were processed

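RNA-seq libraries of CFPAC-1 cells were analysed in 3 groups of 2. Per the labels, RNA was extracted with TRIzol and libraries followed standard Illumina methods. The authors deposited TPM values. Tools named in the submitters' processing notes are RSEM 1.3.1, HISAT2 2.1.0 and DESeq2 1.24.0, and the build is GRCh38. The sources used here do not state the authors' annotation release, any selection of RNA, the strandedness or the handling of shared reads. TPM values are not counts, so no count model was run.

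From the TPM, log2(TPM + 1) was computed after a filter (at least 1 TPM in at least 2 libraries, 16610 genes) and fitted with limma 3.58.1 in R 4.3.3 (package data.table, release 1.17.8), using a variance trend, 3 residual and 2.34 prior degrees of freedom. The fit was tested on simulated data. A fold change on this scale understates changes of low genes, and TPM is relative to all RNA of a library.

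Members and lists were chosen with earlier results of these data known, among them the rise of SLBP, so list counts are not independent support. Values in each library are given for members called in any comparison, the 2 most abundant of each family and class, every tested variant and the duplicated pairs. From each list, up to 4 called genes with the smallest p are named, and SLBP, NPAT and RNU7-1 always. Markers of duct epithelium, fibroblasts, endothelium and leukocytes gave 3, 1, 0 and 0 members called with sgRNA1 and 3, 1, 0 and 1 with sgRNA3. Stem-loops, words of 31 bases and overlaps come from GENCODE 29 transcripts, and promoters from RefSeq. The fit was repeated with a pseudocount of 0.1 or 5, with no filter, a filter of 5 TPM, median-of-ratios scaling, quantile normalization, no trend, a replicate block, summed copies, and each library left out. Figures used matplotlib 3.10.9 in Python 3.11.15 (pandas 2.3.3, numpy 2.4.6).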

Additional observations from a re-analysis of the deposited data

Results flagged for a closer look

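Between the guides, a pair of clustered genes differed by the test of the difference itself. HIST1H2BK had a log2 value of 0.53 for sgRNA3 against sgRNA1 and HIST1H2AC one of 0.58. HIST1H2BK lay above LACZ with both guides, and HIST1H2AC below LACZ with sgRNA1 and above it with sgRNA3. Neither call held in a fit with 1 library left out.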

How the results depend on the processing

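No named gene or sum changed direction while called, and over all alternatives the call of a gene or sum stayed on its side of the threshold 1618 times, was lost 204 times and was gained 8 times. The 1618 includes genes that were not called in the main fit and stayed uncalled, so it does not measure how often a call held. H1F0 and PCNA with both guides, and HIST1H2BK, H2AFX and SLBP with sgRNA3, passed under every alternative.

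With sgRNA1, the 3 clustered genes called higher became 1, HIST1H2BK, with no filter and with the replicate block. With no variance trend the 1 left was HIST1H2AL, which was tested through sgRNA1 alone. Calls were also lost with any library left out. The 1 clustered gene called lower, HIST1H2AD, was no longer called with a pseudocount of 0.1, no filter, the replicate block or any library left out. With a filter of 5 TPM it was not tested, and HIST1H2AC was called lower. The 3 variants called higher became 0 with no variance trend and 0 to 2 with a library left out. The 1 variant called lower became 2 with a filter of 5 TPM, where H3F3B was added, and stayed at 1 with any library left out.

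With sgRNA3, the 2 clustered genes called higher became 1 with no filter, no variance trend or the replicate block, and 1 to 2 with a library left out. The 2 clustered genes called lower became 0 with a pseudocount of 0.1, no filter or the replicate block, 1 with a filter of 5 TPM or no variance trend, and 0 with any library left out. The 2 variants called higher and the 2 called lower each became 1 with no variance trend, and each lost calls in some fits with a library left out. H3F3A was added to the variants called higher with a filter of 5 TPM and with median-of-ratios scaling. Between the guides, the 2 members called became 1 with no filter, median-of-ratios scaling or quantile normalization, and 0 with no variance trend, the replicate block or any library left out. The causes were not tested; a fit with a library left out has fewer residual degrees of freedom.

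The differences between libraries 1 and 2 correlated across genes by -0.02, 0.01 and -0.03 between groups, so no large shift shared by replicate number was seen. This cannot show whether equal numbers mark a shared culture or day. Scaling moved the median of all genes by less than 0.1, but the genes called higher and lower with sgRNA1 went from 281 and 716 to 610 and 578 with median-of-ratios scaling and 442 and 560 with quantile normalization. With sgRNA3 they went from 637 and 872 to 1020 and 806, and to 776 and 808. The median of the tested clustered genes ranged from -0.34 to 0.00 with sgRNA1 and from 0.00 to 0.21 with sgRNA3 over the alternatives. Genes of DNA replication called higher with sgRNA1 became 3 with no filter, 1 with no variance trend and 4 with the replicate block, and those with sgRNA3 became 5 with no variance trend. With 2 libraries a group and unknown depth, levels of a few TPM and zeros are the least certain values.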
